A study of Homo sapiens with 4 samples.

Results

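ChIP-seq signal for HA-tagged EVI1 near the ends of the human chromosomes was examined in 179 peaks. They were 79 of 347 called with wild-type EVI1 (EVI1-WT) and 100 of 388 called with the splice form EVI1+18. A peak was taken as lying at a chromosome end when its summit was within 10 Mb of the first or last base of chr1 to chr22 in the hg19 genome build. The comparison set was all other peaks of chr1 to chr22, 232 in EVI1-WT and 251 in EVI1+18. Left out of both sets were 13 peaks of each list in a nuclear copy of mitochondrial sequence on chr1, 22 EVI1-WT and 15 EVI1+18 peaks on chromosomes X and Y, and 1 and 9 peaks on the mitochondrial sequence.

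The cells were HEK293T, an established human embryonic kidney line, transiently transfected the day before harvest with a pMIGII retroviral vector that carried 3xHA-tagged EVI1-WT or 3xHA-tagged EVI1+18. Chromatin was cut with micrococcal nuclease and precipitated with the anti-HA antibody 3F10. Each form was represented by 1 library, with 28191547 and 27908825 tags kept, and the libraries of the empty vector and of 3xHA alone were not analysed here. Whether any of the peaks also arise without EVI1 was therefore not tested. The series holds 4 libraries, all HEK293T precipitated with the same antibody. The protein studied is a tagged form expressed from a vector in a kidney line, not the protein of leukaemic cells. A list of peaks holds no marker by which the labelled cell type could be checked.

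EVI1, encoded by MECOM, is a transcription factor with separate clusters of zinc fingers that recognise GATA-like and ETS-like sequences, and it is known for its overexpression in myeloid leukaemias with rearrangements of chromosome 3. Human chromosomes end in telomere repeats, next to subtelomeric sequence that is shared between many chromosome ends. Farther inward, the outer parts of many chromosome arms are rich in G and C, in CpG islands, in genes and in tandem repeats, whereas the short arms of chromosomes 13, 14, 15, 21 and 22 carry ribosomal DNA and satellite sequence and are largely missing from the hg19 assembly. Peaks are named here by hg19 position, since no hg19 sequence or annotation was used.

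Peaks were denser at chromosome ends than in the rest of the genome in both lists. The ends comprised 440 Mb, 15.3% of the length of chr1 to chr22, and held 25.4% of the peaks in EVI1-WT (95% interval 20.7 to 30.6) and 28.5% in EVI1+18 (95% interval 23.8 to 33.5). The density was 0.180 peaks per Mb at the ends against 0.0950 in the rest for EVI1-WT, a ratio of 1.89 (95% interval 1.44 to 2.45). For EVI1+18 the densities were 0.227 and 0.103 peaks per Mb, and the ratio was 2.21 (95% interval 1.74 to 2.80). Covered sequence differed more: peaks covered 37.5 bp per Mb at the ends and 12.6 bp per Mb elsewhere in EVI1-WT, and 48.8 and 16.1 bp per Mb in EVI1+18. All intervals cover counting error only and treat peaks as independent, although neighbouring peaks share sequence and chromatin. When peaks of a list less than 20 kb apart were joined and counted once, 50 EVI1-WT and 66 EVI1+18 groups lay at the ends, and the ratios of density were 1.78 (95% interval 1.27 to 2.46) and 2.15 (95% interval 1.60 to 2.88). With 1 library per form the spread between cultures is unknown, and no test was made.

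Small chromosomes contribute a larger share of their length to the ends, so the density was also set against each chromosome's own total. From these totals 48.6 EVI1-WT and 54.9 EVI1+18 peaks would fall at the ends under an even spread, and the observed numbers were 1.63 times (95% interval 1.29 to 2.03) and 1.82 times (95% interval 1.48 to 2.21) as high. The ends were denser than the interior on 16 of 22 chromosomes in EVI1-WT and on 18 of 22 in EVI1+18. They were denser in both lists on 15 chromosomes and sparser in both on 3, which were chromosomes 3, 8 and 16. The empty windows at the short arms of chromosomes 13, 14, 15 and 22 lower the density of the ends. Without the short-arm windows of these and of chromosome 21, the ratios were 2.08 and 2.47. Unassembled gaps in the rest were not taken out of its length, so only the ends were corrected.

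Most of the excess lay close to the chromosome ends. Between the end and 3 Mb inward, EVI1-WT had 37 peaks, 46.8% of its peaks at the ends, at 0.280 per Mb (95% interval 0.197 to 0.386), and EVI1+18 had 50 peaks, 50% of its own, at 0.379 per Mb (95% interval 0.281 to 0.499). From 3 to 10 Mb the densities were 0.136 per Mb (95% interval 0.0983 to 0.184) and 0.162 per Mb (95% interval 0.120 to 0.214). From 10 to 20 Mb they were 0.0955 and 0.0932 per Mb, close to the 0.0950 and 0.105 per Mb found beyond 20 Mb. The most populated single megabase was the second from the end in both lists, with 15 EVI1-WT and 28 EVI1+18 peaks. The first megabase held 9 and 11. The peak nearest to a chromosome end lay 199 kb from the end of chromosome 7 in EVI1-WT (chr7:158939427-158939916, pileup 20 fragments) and 133 kb from its start in EVI1+18 (chr7:132871-133010, pileup 13 fragments), where the pileup is the number of fragments over the summit. No peak of either list was called in the outermost 100 kb of chr1 to chr22.

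**Figure D1:**
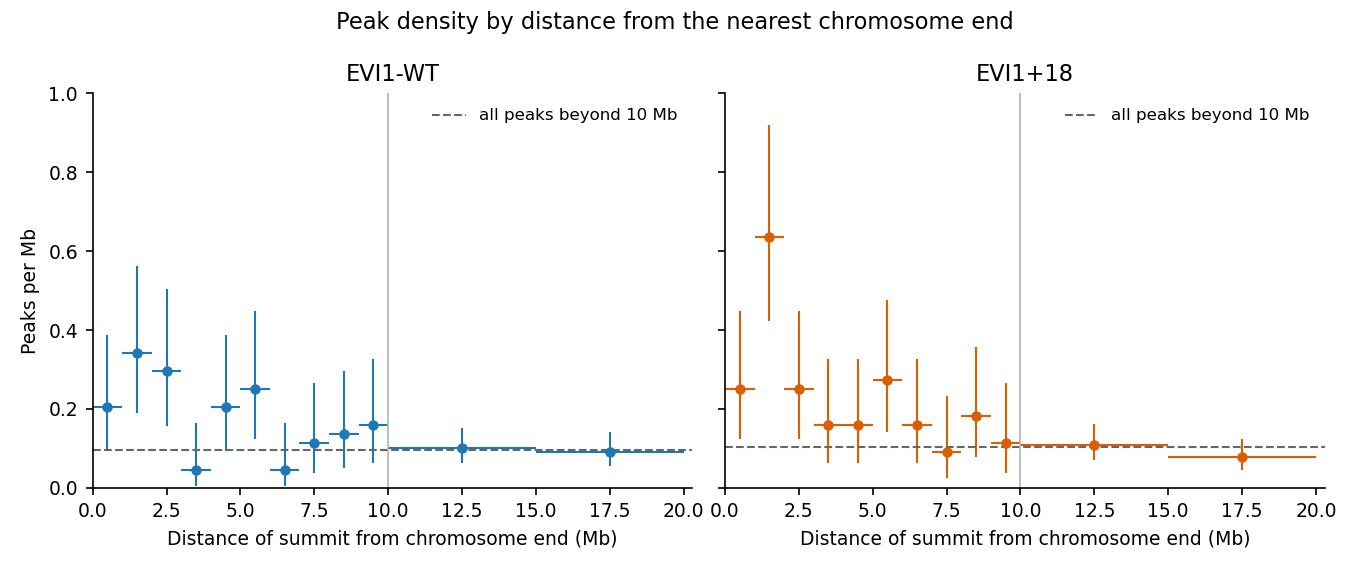
Peaks per Mb (y axis) against the distance of the summit from the nearest chromosome end in Mb (x axis) for EVI1-WT and EVI1+18, in bins of 1 Mb up to 10 Mb and of 5 Mb from there to 20 Mb. Vertical bars are 95% Poisson intervals, horizontal bars the width of each bin, and the dashed line is the density of all peaks beyond 10 Mb. The second megabase stands highest in both lists, at 0.341 and 0.636 peaks per Mb, and the bins from 10 to 20 Mb lie at 0.0773 to 0.109.

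Peaks were spread over many chromosome arms but unevenly. Of the 44 windows of 10 Mb, 29 held EVI1-WT peaks, 30 held EVI1+18 peaks, 28 held both and 13 held none. The windows without a peak included both ends of chromosome 3, the chromosome of MECOM itself. The first and last 10 Mb contributed alike, with 37 and 42 EVI1-WT peaks and 50 and 50 EVI1+18 peaks. The start of chromosome 1 had the most, 8 EVI1-WT and 10 EVI1+18 peaks. It was followed by the end of chromosome 17 with 6 and 5, the start of chromosome 19 with 4 and 7, and the end of chromosome 20 with 3 and 8. The end of chromosome 2 had 3 and 5, and 3 further windows had the same total of 8. These 5 windows together held 24 EVI1-WT and 35 EVI1+18 peaks. In 16 windows EVI1+18 peaks outnumbered those of EVI1-WT, in 7 the reverse held, and in 8 the numbers were equal and above 0. Chromosome 18 had all of its peaks at an end, 1 in EVI1-WT and 2 in EVI1+18, whereas chromosome 16 had 1 of 8 and 0 of 5.

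**Figure D2:**
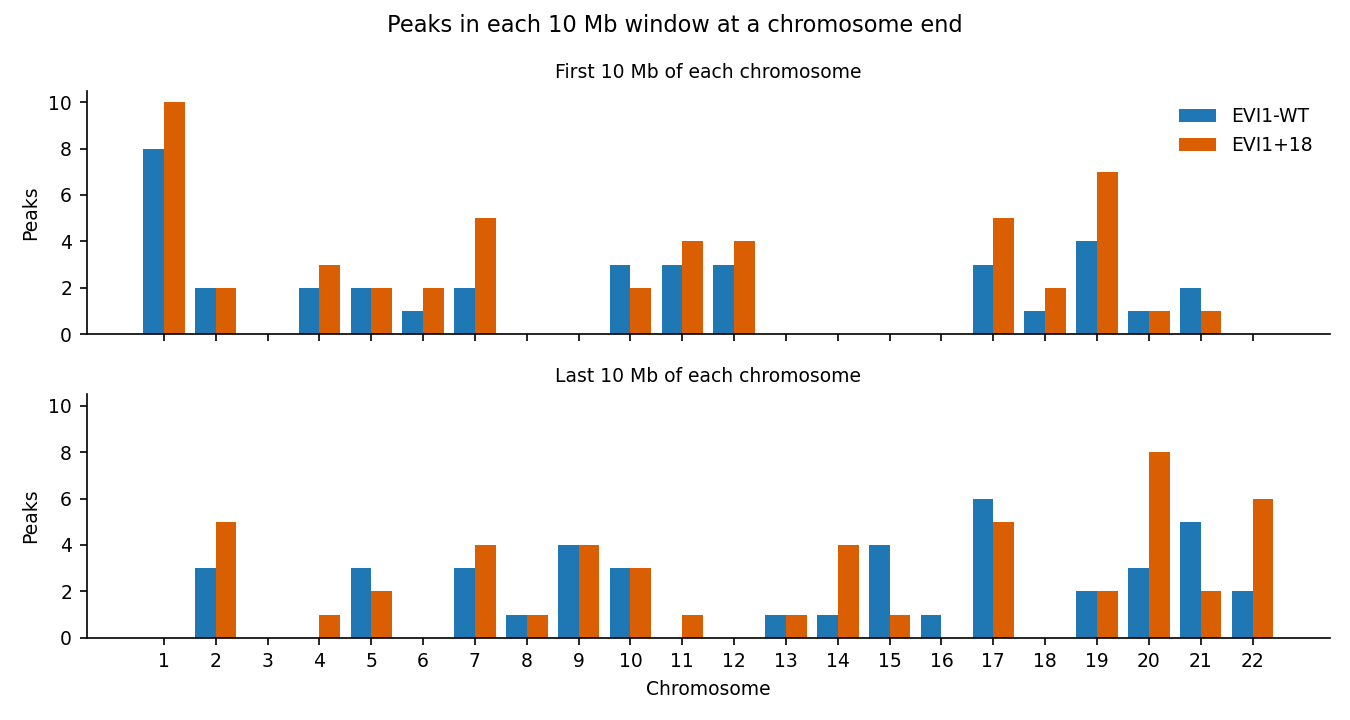
Number of peaks (y axis) in the first and in the last 10 Mb of chromosomes 1 to 22 (x axis), for EVI1-WT and EVI1+18. The first 10 Mb of chromosome 1 hold 8 and 10 peaks, and 13 of the 44 windows hold none.

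Many peaks at chromosome ends lay in clusters, as did many peaks farther than 20 Mb from an end. Of the EVI1-WT peaks there, 50 of 79 (63.3%, 95% interval 51.7 to 73.9) had another peak of the same list within 20 kb, against 52.1% of all EVI1-WT peaks on chr1 to chr22 and 48.3% (95% interval 41.7 to 54.9) of those outside the ends. In EVI1+18 the numbers were 55 of 100 (55%, 95% interval 44.7 to 65.0) at the ends, 49% of all and 46.6% (95% interval 40.3 to 53.0) outside the ends. The difference between ends and rest was 15.02 percentage points in EVI1-WT (95% interval 2.27 to 26.7) and 8.39 points in EVI1+18, where the interval from -3.16 to 19.6 included 0. Such neighbours were rarer just beyond the 10 Mb limit. Between 10 and 20 Mb from an end 23.8% of EVI1-WT peaks had one (95% interval 12.1 to 39.5), as did 21.95% in EVI1+18 (95% interval 10.6 to 37.6), and beyond 20 Mb the shares were 53.7% and 51.4%. The EVI1-WT interval included 0 with joining distances of 5 kb (-1.07 to 23.7) and 100 kb (-0.72 to 23.7) and at a -log10 q of at least 5 (-0.57 to 29.2). A limit of 20 Mb in place of 10 Mb turned the difference to -4.10 points in EVI1-WT and -6.04 points in EVI1+18. Without chromosome 1 it was 7.92 points in EVI1-WT (95% interval -5.53 to 20.6) and -0.68 points in EVI1+18.

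The spacing within the clusters was short. Neighbouring peaks of a group at the ends were separated by a median of 121 bp in EVI1-WT, with quartiles of 91 and 195 bp. In EVI1+18 the median was 83.5 bp, with quartiles of 65.8 and 114 bp. Elsewhere the median gaps were 244.5 bp (quartiles 96.3 and 854) and 357 bp (quartiles 128 and 1077). Of the gaps at the ends, 27 of 29 in EVI1-WT and 34 of 34 in EVI1+18 were under 1 kb, against 59 of 76 and 58 of 81 in the rest. The largest group of a single list had 4 EVI1-WT or 5 EVI1+18 peaks at the ends and 12 or 14 elsewhere. Large groups contribute many of the gaps outside the ends. With the lists joined, chr3:168802691-168845859 held 12 peaks of each form, and chr2:87587462-87593166 held 10 and 14. The gaps were not recomputed without these groups, so whether short spacing is particular to chromosome ends was not tested.

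When the lists were joined, 11 groups at the ends had at least 3 peaks of either form. They spanned 609 to 2422 bp, with a median of 1020 bp, and together held 27 EVI1-WT and 35 EVI1+18 peaks. The group with the most peaks was at chr2:241136942-241138150, where, in a span of 1209 bp, 610 bp were covered by 3 EVI1-WT peaks and 877 bp by 5 peaks of EVI1+18, with median pileups of 11 and 12 fragments. At the far end of chromosome 7, 3 EVI1-WT and 4 EVI1+18 peaks lay within chr7:158938739-158940041, 199 kb from the end, with highest pileups of 20 and 23. Near the start of the same chromosome, chr7:1418261-1419203 held 2 and 3 peaks that covered 649 and 635 bp.

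Chromosome 1 had 3 such groups. The group at chr1:3843023-3844042 held 2 EVI1-WT and 3 EVI1+18 peaks, the one at chr1:5466421-5467029 held 3 and 2, and the one at chr1:5663542-5664517 held 3 and 3. The highest EVI1-WT pileups in them were 16, 11 and 12 fragments, and those of EVI1+18 were 18, 15 and 14. No summit in these 3 groups was thus above 18 fragments, and both forms were present in each.

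Stronger signal was found in groups on chromosomes 12 and 21. At chr12:1230429-1231940, 1300 bp were covered by 3 EVI1-WT peaks with a highest pileup of 43 fragments, and 1371 bp by 2 peaks of EVI1+18 with a highest pileup of 46. The widest group was chr21:44048371-44050792, where 1951 bp were covered by 4 EVI1-WT peaks and 1975 bp by 2 peaks of EVI1+18, with highest pileups of 32 and 38. Both forms thus covered nearly the same length although the stretch was divided differently.

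The remaining groups were on chromosomes 11, 20 and 22. Both forms had 3 peaks at chr11:1415190-1416084, covering 223 bp (EVI1-WT) and 747 bp (EVI1+18). At chr22:49893690-49894726, the single EVI1-WT peak was 355 bp long, and 4 peaks of EVI1+18 covered 439 bp. The group at chr20:61692669-61693440 was the only one of the 11 with a single form: 4 EVI1+18 peaks covered 460 bp with a median pileup of 10 fragments, and no EVI1-WT peak was called. Over the 11 groups EVI1+18 had more peaks in 6, EVI1-WT in 3, and 2 were equal, while EVI1+18 covered more sequence in 9 and EVI1-WT in 2.

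Peaks of at least 500 bp made up a larger share at chromosome ends than elsewhere, and the median height differed by 1 fragment. The median length was 110 bp at the ends (95% interval 94 to 135) and 94 bp in the rest (95% interval 86 to 102) in EVI1-WT, and 136.5 bp (95% interval 101 to 152) and 115 bp (95% interval 106 to 126) in EVI1+18. Peaks of at least 500 bp made up 8 of 79 at the ends (10.1%, 95% interval 4.47 to 18.98) against 3 of 232 in the rest (1.29%, 95% interval 0.267 to 3.73) in EVI1-WT. In EVI1+18 they made up 9 of 100 (9%, 95% interval 4.20 to 16.4) against 7 of 251 (2.79%, 95% interval 1.13 to 5.66). Without groups of 3 or more peaks in either class, the difference in EVI1+18 was 2.58 percentage points (95% interval -2.89 to 11.4), against 6.21 with them. The median summit pileup was 12 fragments at the ends in both lists and 13 in the rest in both. A pileup of at least 25 fragments was found at 9 of 79 EVI1-WT peaks of the ends (11.4%) against 53 of 232 in the rest (22.8%), or 12.4% of the rest without 4 dense peak regions of the interior, on chromosomes 3, 5 and 11. In EVI1+18 it was found at 8 of 100 (8%) against 26 of 251 (10.4%), or 4.31% without the dense regions. Leaving these regions out reduced the rest to 202 EVI1-WT and 232 EVI1+18 peaks. What sequence they hold was not examined, and they are part of the rest wherever their removal is not stated.

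Fold enrichment, the authors' ratio of pileup plus 1 to local background plus 1 at the summit, had a median of 7.12 at the ends and 7.03 in the rest in EVI1-WT, and of 6.76 and 7.30 in EVI1+18. The interquartile ranges overlapped almost fully, 6.10 to 8.63 against 5.59 to 9.29 in EVI1-WT and 5.90 to 8.20 against 5.94 to 8.61 in EVI1+18. Among the 20 peaks with the largest fold enrichment of each list, 5 EVI1-WT and 6 EVI1+18 peaks were at the ends. Outside those dense regions, which were chosen on EVI1-WT pileup, the same counts were 9 and 8 of 20.

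The local background at the summits was also compared. It was recovered for every peak from the pileup and the fold enrichment, and a Poisson tail with this background reproduced each deposited -log10 p within 2e-05. The median background was 0.87 expected fragments at the ends and 0.97 in the rest for EVI1-WT, and 0.75 and 0.96 for EVI1+18. With the median of the rest held fixed, the 95% interval of the difference was -0.25 to 0 in EVI1-WT. In EVI1+18 it was -0.26 to -0.030. The EVI1-WT difference was 0 at limits of 5 and 20 Mb. The EVI1+18 intervals of the medians themselves were 0.695 to 0.927 at the ends and 0.927 to 0.957 in the rest. The value of 0.97 or 0.96 is that of 1 control tag over the summit, scaled to the library. A background of at least 2 control tags was present at 9 of 79 peaks of the ends (11.4%, 95% interval 5.34 to 20.5) and 53 of 232 in the rest (22.8%, 95% interval 17.6 to 28.8) in EVI1-WT. In EVI1+18 it was present at 6 of 100 (6%, 95% interval 2.23 to 12.6) and 45 of 251 (17.9%, 95% interval 13.4 to 23.2). Backgrounds equal to 2 or more control tags were thus less frequent at the ends in both lists, which were called against the same control. The EVI1-WT intervals overlapped, and the shares were not recomputed without the dense regions.

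**Figure D3:**
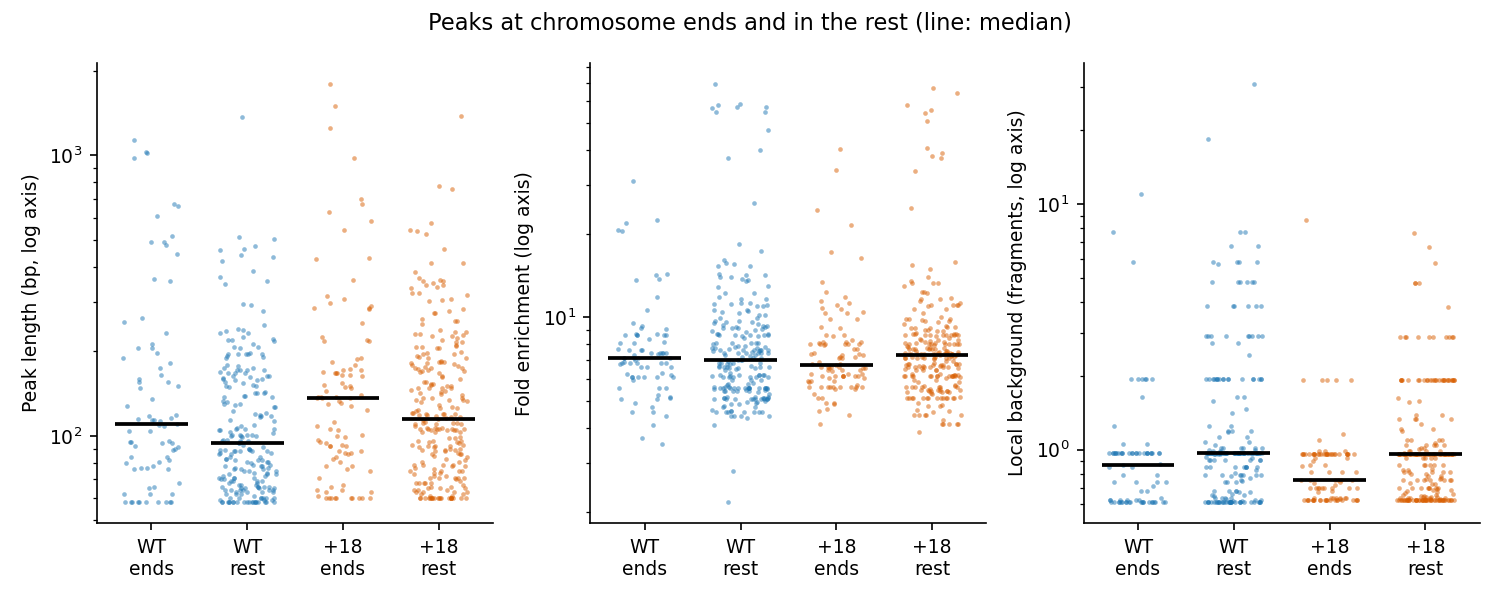
Peak length in bp, fold enrichment and local background in expected fragments (y axes, all logarithmic) for single peaks at the ends and in the rest of chr1 to chr22 in both lists. Horizontal lines are medians. At the ends the longest EVI1-WT peak is 1131 bp and the longest EVI1+18 peak 1796 bp, and the median background is lower at the ends in both lists.

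A few members had high pileup on a high background. The highest pileup of EVI1-WT at the ends, 66 fragments at chr13:110076484-110076688, stood on a background of 8 control tags and had a fold enrichment of 7.67. The overlapping EVI1+18 peak, chr13:110076514-110076682, had a pileup of 44, 9 control tags and a fold enrichment of 4.68. On the short arm of chromosome 21, at chr21:9827043-9827126, a pileup of 41 fragments in EVI1-WT gave a fold enrichment of 3.51, the lowest at the ends of that list. At chr17:80544179-80544267 a pileup of 24 gave 3.68. No EVI1+18 peak overlapped either of these last peaks.

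Of the EVI1-WT peaks at the ends, 55 of 79 (69.6%, 95% interval 58.2 to 79.5) overlapped an EVI1+18 peak by at least 1 bp, against 61.7% of all EVI1-WT peaks on chr1 to chr22 and 59.1% (95% interval 52.4 to 65.4) outside the ends. Among the 100 peaks of EVI1+18 at the ends, 51 shared sequence with a peak of EVI1-WT (51%, 95% interval 40.8 to 61.1), against 52.1% of all and 52.6% (95% interval 46.2 to 58.9) outside the ends. The intervals of both differences included 0, at -1.90 to 21.7 percentage points for EVI1-WT and -13.0 to 9.80 for EVI1+18. Overlap followed the strength of the peak. At or above the median fold enrichment of its list, 34 of 42 EVI1-WT and 38 of 45 EVI1+18 peaks at the ends were overlapped (81.0% and 84.4%). Below it, 21 of 37 and 13 of 55 were (56.8% and 23.6%). The rest of the chromosomes had the same order, with 78.1% and 72.5% at or above the median and 40.7% and 30.8% below it. The lists share their control, and sharing of places by way of that control was not tested.

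Counted as groups joined over both lists, 78 places at the ends were marked. EVI1-WT and EVI1+18 both had peaks at 38 of them, EVI1-WT alone at 12 and EVI1+18 alone at 28. Both forms thus marked 38 of 50 groups with EVI1-WT peaks (76%, 95% interval 61.8 to 86.9) and 38 of 66 groups with EVI1+18 peaks (57.6%, 95% interval 44.8 to 69.7). Elsewhere the shares were 63.9% of 155 and 58.2% of 170. At 2 of the 38 places, peaks of the forms lay beside each other without overlap. One of them was chr19:54548546-54549111, with 2 EVI1-WT peaks and 1 EVI1+18 peak.

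A minority of peaks at chromosome ends faced 2 separate peaks of the other list, at a higher share than elsewhere. Of the EVI1-WT peaks there, 8 of 79 (10.1%, 95% interval 4.47 to 18.98) overlapped 2 or more EVI1+18 peaks, against 3.22% of all on chr1 to chr22 and 2 of 232 (0.86%, 95% interval 0.105 to 3.08) outside the ends. In EVI1+18, 12 of 100 peaks at the ends (12%, 95% interval 6.36 to 20.0) overlapped 2 or more EVI1-WT peaks, against 5.13% of all and 6 of 251 (2.39%, 95% interval 0.882 to 5.13) outside. The differences were 9.26 percentage points (95% interval 3.88 to 17.9) and 9.61 points (95% interval 3.91 to 17.5). Without groups of 3 or more peaks in either class they were 5.12 points (95% interval 0.33 to 15.01) and 5.91 points (95% interval 0.42 to 15.07). A reciprocal overlap of 50% permits no such case and gave 0 in both lists. The median length of these peaks was 421.5 bp (EVI1-WT) and 563.5 bp (EVI1+18), and the gaps between the partners they faced were 51 to 195 bp. Some partners were longer than the peak they overlapped, as at chr21:44050222-44050400, where an EVI1+18 peak of 179 bp faced EVI1-WT peaks of 1020 and 198 bp. The same chromosome 21 stretch gave cases in both lists, as did stretches on chromosomes 1 and 2. The differences found in the lists are thus not independent of each other.

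**Figure D4:**
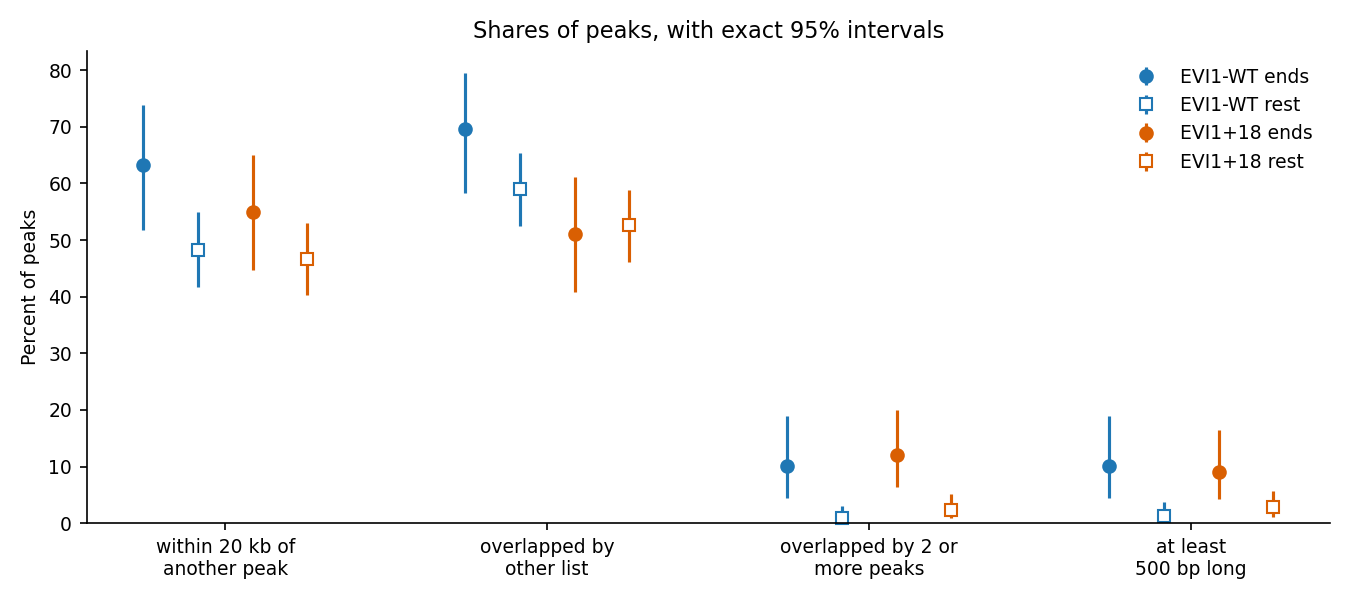
Percent of peaks (y axis) that lie within 20 kb of another peak of their list, are overlapped by the other list, are overlapped by at least 2 of its peaks, or are at least 500 bp long, at the ends (filled circles) and in the rest of chr1 to chr22 (open squares). Bars are exact 95% intervals. For peaks overlapped by at least 2 others, the ends stand at 10.1% and 12% and the rest at 0.86% and 2.39%.

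Several of these stretches were among the strongest at the ends. The largest fold enrichment of EVI1-WT at the ends, 31.0 with a pileup of 49 fragments, was at chr17:7955706-7956836. There a single EVI1+18 peak of 1500 bp, chr17:7955465-7956964, had a pileup of 54 and a fold enrichment of 33.8, and also overlapped a second EVI1-WT peak of 155 bp, chr17:7955462-7955616. At chr5:171116638-171117889, an EVI1+18 peak of 1252 bp with a pileup of 30 faced EVI1-WT peaks of 1030 and 76 bp with pileups of 26 and 15. On chromosome 6 the roles were reversed: an EVI1-WT peak of 480 bp at chr6:904815-905294 with a pileup of 14 faced EVI1+18 peaks of 188 and 225 bp with pileups of 15 and 16. The chromosome 17, 5 and 6 stretches were chosen for description after their values were seen.

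At 27 places a single EVI1-WT peak and a single EVI1+18 peak overlapped only each other. The pair with the highest mean rank in fold enrichment was on chromosome 17, 2.29 Mb from the end, at chr17:78903552-78904532 in EVI1-WT. EVI1-WT had a pileup of 63 fragments there and EVI1+18 one of 78, with fold enrichments of 21.8 and 40.4. The local backgrounds were 1.93 and 0.96 fragments. The fold enrichments thus differed more than the pileups did, and the background under the summit was that of 2 control tags in EVI1-WT and 1 in EVI1+18, whose summits lay 226 bp apart. The second pair was at chr12:1231242-1231850, with pileups of 36 and 46 and fold enrichments of 20.6 and 24.4.

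The next pairs were narrower. At chr9:139422898-139423102 the pileups were 18 and 27 fragments, and the peaks started at the same base in both lists. The pair at chr18:2842267-2842328, 62 and 63 bp long, also started at the same base and had pileups of 22 and 19. At chr20:2823452-2823543 the pileups were 26 and 21, and the EVI1+18 peak was 290 bp long against 92 bp in EVI1-WT. Both edges of the chromosome 18 pair agreed within 1 bp, whereas the edges of the chromosome 20 pair differed by up to 118 bp.

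Pileups at these pairs were mostly lower in EVI1-WT. Divided by the tags kept, the ratio of EVI1-WT to EVI1+18 had a median of 0.81 over the 27 pairs (interquartile range 0.77 to 0.99; 95% interval of the median 0.77 to 0.99) and ranged from 0.49 at chr7:158939089-158939156, with 8 and 16 fragments, to 1.48 at the chromosome 13 peak on high background. EVI1-WT was the higher at 6 of 27 pairs (22.2%, 95% interval 8.62 to 42.3), against 32.7% of all 150 pairs on chr1 to chr22. For no single pair at the ends did the counting interval of the ratio exclude 1. In the rest the median ratio was 0.93 over 123 pairs (interquartile range 0.82 to 1.09), and 0.89 over the 104 pairs outside the dense regions. Those regions were chosen on EVI1-WT pileup, the numerator of this ratio, so leaving them out favours a lower value. The EVI1+18 peak was the longer at 19 of the 27 pairs and EVI1-WT at 8, and the median ratio of lengths was 1.43. In the rest EVI1+18 was the longer at 77 of 123 pairs with a median ratio of 1.10, and outside the dense regions at 69 of 104 with a median ratio of 1.20. The caller extended tags to 58 bp in EVI1-WT but to 60 bp in EVI1+18. When pileups were divided by fragment length as well, the median ratio was 0.84 and its 95% interval, 0.80 to 1.02, included 1, as it also did at a -log10 q of at least 5 (0.87, 95% interval 0.78 to 1.07) and without groups of 3 or more peaks (0.81, 95% interval 0.76 to 1.07). With the mitochondrial copy on chromosome 1 put back, the median ratio was 0.99 (95% interval 0.81 to 1.20). The interval stayed below 1 at limits of 5 and 20 Mb, without chromosome 1, and without chromosomes 16, 17, 19 and 22. The part of fragment length in the peak lengths was not tested. Summits of the pairs lay a median of 33 bp apart at the ends and 21 bp apart in the rest.

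**Figure D5:**
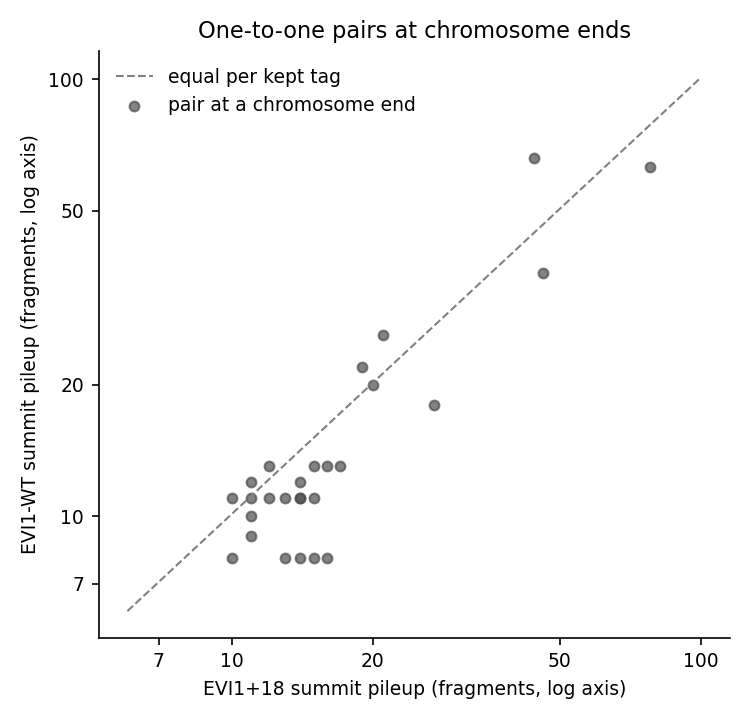
Summit pileup in EVI1-WT (y axis) against EVI1+18 (x axis), in fragments on logarithmic axes, at the 27 one-to-one pairs at chromosome ends; each point is a pair and equal pairs coincide. The dashed line marks equal pileup per kept tag. Of the pairs, 6 lie above the line, and the median of the 27 ratios, EVI1-WT over EVI1+18, is 0.81.

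EVI1+18 had the larger number of peaks at chromosome ends, 100 against 79. After division by kept tags the ratio was 1.28, and its 95% interval of 0.94 to 1.74 included 1. In the rest it was 1.09 (95% interval 0.91 to 1.31). EVI1+18 peaks covered 21487 bp at the ends and EVI1-WT peaks 16497 bp, a ratio of 1.30, against 1.28 in the rest.

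Peaks called in a single list were shorter and had lower fold enrichment than the shared ones, both at the ends and in the rest. The 24 EVI1-WT peaks at the ends without an overlapping EVI1+18 peak had a median length of 83 bp, compared with 135 bp for those with one, and their median fold enrichments were 6.80 and 7.45. The 49 EVI1+18 peaks without a partner were also shorter than the 51 with one, at medians of 88 and 184 bp, and their median fold enrichments were 6.13 and 8.17. In the rest the median lengths without and with a partner were 71 and 127 bp in EVI1-WT, and 90 and 172.5 bp in EVI1+18. The median fold enrichments there were 5.77 and 8.07 in EVI1-WT, and 6.27 and 8.08 in EVI1+18. The strongest EVI1-WT peak at the ends without a partner was chr5:1845958-1846052, with a pileup of 17 fragments and a fold enrichment of 9.15. It lay 33 bp from an EVI1+18 peak. The next were at chr10:130722655-130722712 (pileup 13, fold 8.69), chr16:89654292-89654349 (pileup 12, fold 8.07), chr17:78904642-78904769 (pileup 13, fold 8.07) and chr9:131454951-131455008 (pileup 14, fold 7.63). The chromosome 16 peak was 21.8 Mb from the nearest EVI1+18 peak, whereas the chromosome 17 peak was 147 bp from one, next to the strongest pair.

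Among EVI1+18 peaks without a partner, the strongest was at chr10:130381641-130381704 (pileup 13, fold 8.61), 0.341 Mb from the chromosome 10 EVI1-WT peak just named. Peaks with pileups of 12 fragments followed at chr11:128869227-128869290 (fold 8.00), chr22:49387979-49388061 (fold 8.00), chr2:241138014-241138150 (fold 7.94) and chr1:8695967-8696029 (fold 7.67). The chromosome 2 peak lay 138 bp from an EVI1-WT peak, within the group that held the most peaks. For places called with 1 form, the lists give no pileup of the other form, so binding below the calling threshold could not be seen.

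The limit of 10 Mb cut through no cluster. In both lists the member just inside it was on chromosome 20, 9.93 Mb from the end, at chr20:53097528-53097608 in EVI1-WT (pileup 13, fold 8.69) and chr20:53097509-53097613 in EVI1+18 (pileup 17, fold 11.1). Just outside were peaks on chromosome 12, 10.1 Mb from the end, at chr12:123717801-123717913 in EVI1-WT (pileup 10, fold 5.59) and chr12:123717957-123718021 in EVI1+18 (pileup 13, fold 8.61).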

How the data were processed

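ChIP-seq peak lists of 2 libraries were used, 1 per form of EVI1. Per the file headers, the authors called peaks on each library alone with MACS 2.0.10.20120913, setting the q-value limit to 0.05, against 1 input control of mock cells with 29153787 tags kept, keeping at most 1 tag per position. Per the submitters' processing notes, bcl2fastq made the reads and positions are in hg19. The control's path names BWA, per the file headers; the version of BWA is not given in the sources used here. The deposited pileup is a signal, fragments over the summit, a whole number at each of the 347 and 388 peaks. Fold enrichment, as deposited, is a ratio equal to the pileup plus 1 over the local background plus 1, from which the background was recovered. Deposited p-values and q-values are on the −log10 scale. Scores of single peaks describe peaks within their list, and pileups were compared between lists after division by kept tags (28191547 and 27908825).

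Chromosome ends were set by standard hg19 chromosome lengths, unassembled gaps included. Intervals are exact Clopper-Pearson (shares), Poisson (densities), conditional binomial (ratios), order-statistic (medians) and Newcombe (differences of shares), all at 95% and for counting error only. For differences of medians, the interval is that of the ends median, with the median of the rest held fixed. No p-value was computed, since each form had 1 library. The steps for classes, groups and overlaps were checked on simulated peaks. Named peaks at the ends are the 5 one-to-one pairs with the highest mean rank in fold enrichment, the 5 strongest peaks of each list without a partner, groups with at least 3 peaks of either list, the 5 windows with the most peaks, and the peaks nearest to an end and to the limit; others were chosen after their values were seen. The members and rules were chosen with earlier results of these data known. Tables were handled in pandas 2.3.3 and numpy 2.4.6 under Python 3.11.15, intervals came from SciPy 1.17.1, and plots from matplotlib 3.10.9.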

Additional observations from a re-analysis of the deposited data

Results flagged for a closer look

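The difference between chromosome ends and the rest had opposite signs in the lists for some measures, and with 1 library each this contrast between the forms was not tested. The share of peaks overlapped by the other list was 10.6 percentage points higher at the ends in EVI1-WT, and in EVI1+18 the difference was -1.59 points. The median fold enrichment differed by 0.085 in EVI1-WT and by -0.54 in EVI1+18, ends minus rest. The opposite signs depended on the processing. In EVI1+18 the overlap difference was positive under 5 of 10 alternatives (1.21 points at a limit of 5 Mb, 6.95 at a -log10 q of at least 5, 2.29 without the dense regions, 3.32 without chromosomes 16, 17, 19 and 22, and 4.05 with the mitochondrial copy). The fold difference in EVI1+18 was 0.028 at a -log10 q of at least 5 and 0.038 without those chromosomes. In EVI1-WT the overlap difference was -6.74 points with a reciprocal overlap of 50%, and the fold difference was -1.02 at a -log10 q of at least 5.

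Peaks outside the set described were also placed near chromosome ends by their coordinates. Within 10 Mb of the ends of chromosome X there were 8 EVI1-WT and 7 EVI1+18 peaks (median pileup 11 in each list), and within 10 Mb of the ends of chromosome Y there were 8 EVI1-WT peaks and 3 EVI1+18 peaks. The first 3 of these counts were above 3, the limit that a count of 0 allows. Whether the cells carry a chromosome Y was not examined, so the peaks placed on it are not read as binding there. The nuclear copy of mitochondrial sequence on chromosome 1 held 13 peaks in EVI1-WT and 13 in EVI1+18, between positions 564478 and 570289.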

How the results depend on the processing

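Of 203 alternative values, 192 lay inside the reported interval (for counts and covered length, within 1.5 times), 10 moved outside it and 1 turned to the other side of equality with the reported interval excluding it. For differences of medians this interval held the median of the rest fixed. A limit of 20 Mb gave an EVI1+18 density ratio of 1.53 and differences in the grouped share of -4.10 points in EVI1-WT, the turned value, and -6.04 points in EVI1+18. A limit of 5 Mb raised the difference in median length of EVI1-WT to 45.5 bp. Reciprocal overlap of 50% gave a difference in the overlapped share of EVI1-WT of -6.74 points and 0 points for overlap with 2 or more peaks in both lists, by its own construction. A −log10 q of at least 5 moved the EVI1-WT differences to -5 fragments in median pileup and -1.02 in median fold enrichment. Without the dense regions of the interior, chosen on EVI1-WT pileup, the EVI1-WT difference in median fold enrichment was 0.51. The EVI1+18 difference in median pileup was then 0. For these other than the reciprocal rule the cause was not tested. The ratio of densities stayed above 1 under all 11 alternatives run for it in each list, from 1.45 to 2.21 in EVI1-WT and from 1.53 to 2.70 in EVI1+18. Added after seeing the data were the expectation from chromosome totals, the removal of chromosome 1 or of groups of 3 or more peaks, and the return of the chromosome 1 mitochondrial copy. Of 30 alternatives for the 15 named pairs and unpaired peaks, 6 changed the number of partners. No paired analysis was possible because there was 1 library per form, so leaving out a library was not possible either. At the ends no peak had a pileup under 8 fragments (EVI1-WT) or 7 (EVI1+18), and weaker sites were not detectable at this depth.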
